A study of Mus musculus with 112 samples.

Results

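The cell cycle and mitosis genes were a list of 40 genes chosen by name, and a gene was taken as measured where the array held a probe set with its symbol alone. This left 39 members of the 19938 genes on the array, because Ccnb1, the other main mitotic B cyclin, had no such probe set. Ccnb1 was therefore not analysed here. Where a gene had several probe sets, as Pcna and Top2a did, the brightest stood for it.

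Expression was measured in heart tissue of male mice of 7 strains, with 8 mice per strain and diet and 1 Affymetrix Mouse Gene 1.0 ST array per mouse. The inbred strains were 129S1/SvImJ, BALB/cJ (also spelled Balbc/J in the labels), C3H/HeJ, C57BL/6J (also C57BL6/J), CBA/J and DBA/2J, and B6C3F1/J is the hybrid of C57BL/6J and C3H/HeJ. All mice received 84 kcal per week of a diet of the AIN93M type until 8 weeks of age, when they were kept on the control diet or moved to calorie restriction (CR). Hearts were taken at 22 weeks of age after an overnight fast. The CR food of 129S1/SvImJ and C57BL/6J mice was lowered further during the experiment, and both diet groups of BALB/cJ had larger rations. The labels name the replicates as biological, and the p-values rest on the differences among mice of a group. DBA/2J CR replicate 7 was left out, because its correlation with the mean of its group was 0.262, against at least 0.894 for every array kept. The comparison used 111 arrays, 56 control and 55 CR.

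The mean signal of 8 cardiomyocyte markers was 12.6 in the control groups, so the defining markers of heart muscle were bright. The atrial markers varied from array to array, with Bmp10 at a median of 3.93 and up to 11.4 outside 2 arrays set apart below. In bulk tissue, fewer cells of a type and less RNA per cell cannot be told apart. Signals are log2 values from robust multi-array averaging (RMA), and the levels of different probe sets cannot be compared with each other.

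Cell division is driven by cyclins, which rise and fall through the cycle and activate cyclin-dependent kinases. Genes for DNA synthesis are switched on by E2F factors as cells enter S phase. Genes for mitosis are held off in resting cells by the DREAM complex and switched on later by B-Myb and FoxM1, and many of their promoters carry a cell cycle genes homology region (CHR) next to CCAAT boxes. Adult heart muscle cells rarely divide, and most cycling cells of a resting heart are found among its other cells, such as endothelial cells, fibroblasts and blood-derived cells.

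Promoter sequences are shown first, because the members fell into a group with replication roles and a group with mitotic roles whose promoters carry different elements. RefSeq promoter windows (GRCm38.p6, 250 bases before to 50 bases after the gene start) were held for 34 of the 39 members, in 37 windows of 300 bases. Ect2, Prc1 and Mcm7 had windows at different starts, which overlapped for Ect2 and Prc1 but not for Mcm7. Both strands were searched for the CHR core TTTGAA, for CCAAT, and for 3 E2F words, TTTGGCGC, TTTCGCGC and TTCCCGCC. The CHR core was present in 23 of 28 windows of the members outside DNA replication (82.143%) and in 1 of 9 windows of the replication members, against 17.893% of all 32851 windows. CCAAT was present in 81.081% of member windows and 37.408% of all windows. An E2F word was present in 4 of 9 replication windows and in 2 of 28 others, against 2.962% of all windows. The CHR core and CCAAT occurred together in 71.429% of the windows of the members outside DNA replication and in 6.953% of all windows. These are matches of letters and were not tested as binding sites.

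The windows of 4 mitotic members that were lower under CR, and of the replication gene Mcm5, are given below from 250 bases before to 30 bases after the start, 5′ to 3′ on the strand of the gene. Mcm5 was chosen after its values were seen. The fifth called member with a window, Anln, is not shown, and it held 2 CHR cores that began 22 and 29 bases into the transcript and no CCAAT. Capitals mark the CHR core, CCAAT and E2F words on either strand, and a match on the opposite strand shows its complement read from the strand of the gene. The windows are Ccnb2 at chr9:70421525-70421804 on the minus strand, Cdk1 at chr10:69352883-69353162 on the minus strand, Mki67 at chr7:135716350-135716629 on the minus strand, Prc1 at chr7:80294201-80294480 on the plus strand and Mcm5 at chr8:75109259-75109538 on the plus strand.
Ccnb2: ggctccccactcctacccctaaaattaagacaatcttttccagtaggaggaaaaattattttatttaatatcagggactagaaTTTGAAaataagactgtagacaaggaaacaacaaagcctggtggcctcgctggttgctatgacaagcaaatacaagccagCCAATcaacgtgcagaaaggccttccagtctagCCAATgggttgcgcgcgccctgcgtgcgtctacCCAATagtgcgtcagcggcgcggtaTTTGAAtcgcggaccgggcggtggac
Cdk1: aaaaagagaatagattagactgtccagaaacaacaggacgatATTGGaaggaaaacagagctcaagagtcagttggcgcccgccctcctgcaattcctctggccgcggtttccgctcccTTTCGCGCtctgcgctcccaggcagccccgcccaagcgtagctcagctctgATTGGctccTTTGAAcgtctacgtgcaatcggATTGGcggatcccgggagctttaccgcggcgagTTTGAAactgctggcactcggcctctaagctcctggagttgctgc
Mki67: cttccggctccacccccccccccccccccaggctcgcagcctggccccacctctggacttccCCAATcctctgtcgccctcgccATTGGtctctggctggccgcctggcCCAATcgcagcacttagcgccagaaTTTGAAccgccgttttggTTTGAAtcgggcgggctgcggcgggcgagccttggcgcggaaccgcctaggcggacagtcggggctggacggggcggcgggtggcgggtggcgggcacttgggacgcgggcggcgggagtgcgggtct
Prc1: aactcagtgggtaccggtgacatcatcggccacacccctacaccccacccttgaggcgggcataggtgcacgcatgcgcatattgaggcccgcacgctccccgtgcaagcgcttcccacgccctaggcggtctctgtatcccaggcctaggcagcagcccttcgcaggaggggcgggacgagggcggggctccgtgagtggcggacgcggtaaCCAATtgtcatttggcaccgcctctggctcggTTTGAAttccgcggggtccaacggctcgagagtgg
Mcm5: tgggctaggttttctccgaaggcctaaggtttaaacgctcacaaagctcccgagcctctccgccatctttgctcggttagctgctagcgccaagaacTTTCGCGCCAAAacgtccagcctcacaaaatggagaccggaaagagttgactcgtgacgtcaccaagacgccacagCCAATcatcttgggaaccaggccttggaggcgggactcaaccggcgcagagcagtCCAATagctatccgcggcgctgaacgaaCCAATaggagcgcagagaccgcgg
Ccnb2 held 3 CCAAT boxes on the strand of the gene and 2 CHR cores, which began at -167 and 5 from the start. Cdk1 held 2 CHR cores, 3 CCAAT boxes on the opposite strand and an E2F word. In Mcm5, which held no CHR core, 2 E2F words on opposite strands overlapped, and 3 CCAAT boxes followed.

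Before the effect of CR, 2 control arrays need to be set apart. DBA/2J control 5 and BALB/cJ control 7 had much higher signals than all other arrays for nearly all members and for the markers of T cells and thymocytes. The mean of the 12 T cell markers measured was 8.53 in DBA/2J control 5 and 7.45 in BALB/cJ control 7. In the other 109 arrays it was at most 5.01, and in the 55 CR hearts it ranged from 4.02 to 4.65. The markers included Cd3e, a part of the T cell receptor complex, at 9.19 and 8.37 against at most 6.29 elsewhere, and Cd4, the coreceptor of helper T cells, at 9.19 and 8.36 against at most 5.66. Rag1, which recombines receptor genes in immature lymphocytes, was at 9.44 and 8.56 against at most 4.73. Of the 12 markers, 11 were higher in each of these arrays than in any of the other 109, and the exception was Ptcra. None of the 6 B cell, 9 macrophage, 7 neutrophil or 5 erythroid markers was. These arrays also held atrial and adipocyte signals above the median of the other arrays, as in Myl7 at 11.8 and 12.5 (median 5.83, highest 12.7) and Adipoq at 7.68 and 8.10 (median 4.05, highest 10.05). Of these 6 atrial and 7 adipocyte markers only the atrial gene Nppa in BALB/cJ control 7 (13.8 against at most 13.6) was above all of the other 109 arrays.

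Of the 39 members, 37 were higher in DBA/2J control 5 than in all of the other 109 arrays, and 32 were so in BALB/cJ control 7. Top2a, the topoisomerase that untangles replicated chromosomes, was at 8.62 and 7.82 in these arrays against at most 5.63 elsewhere. Ccna2 was at 8.96 and 7.59 against at most 6.11, and Mki67 at 9.06 and 8.23 against at most 6.13. Relative to the other control mice of its strain, a member was higher by 0.26 to 3.78 in DBA/2J control 5 (median 2.03) and by 0.06 to 3.20 in BALB/cJ control 7 (median 1.46). Cenpf and Melk were the members that exceeded all of the other 109 arrays in neither. The main results below are therefore given with and without these 2 arrays, and a value given once is that of the 111 arrays.

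**Figure D1:**
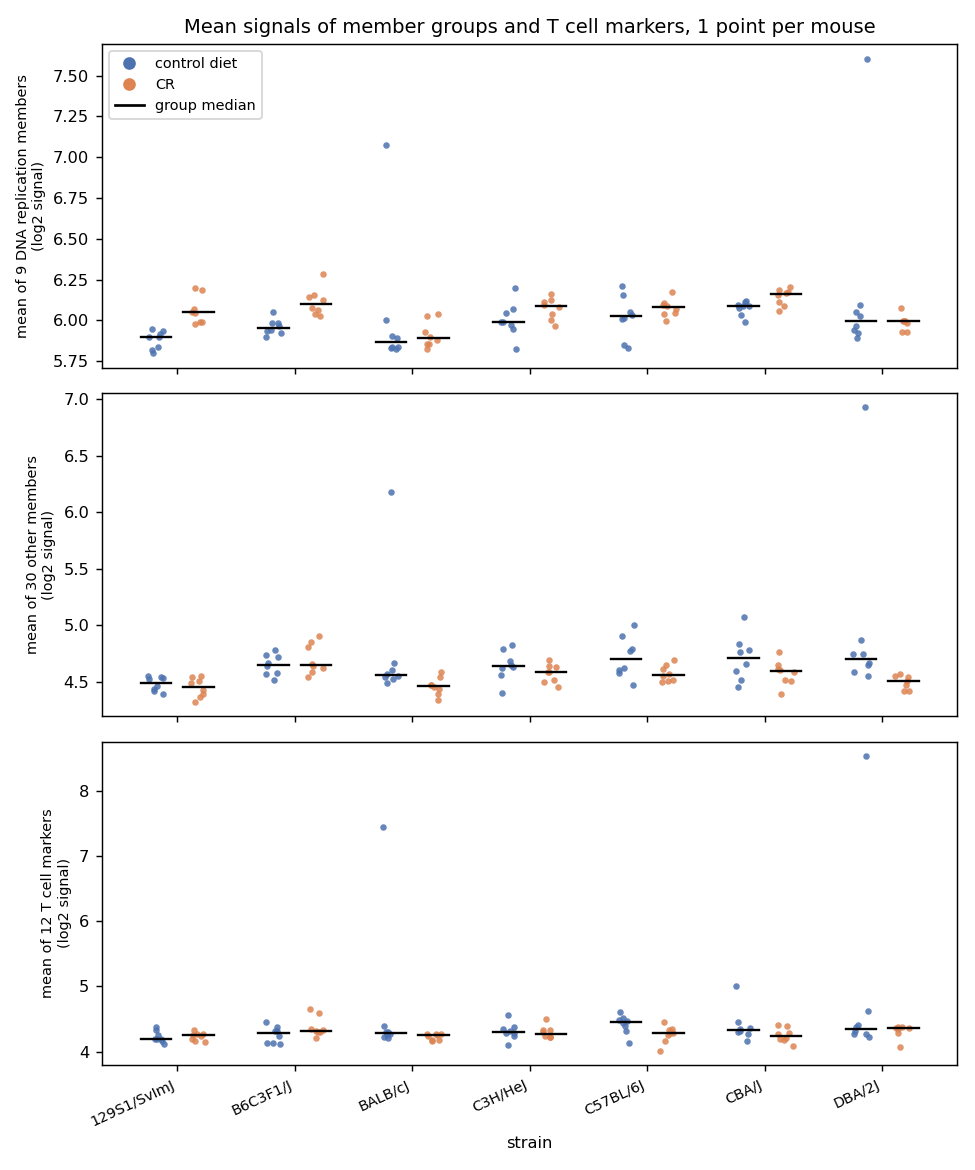
Mean log2 signal of the 9 DNA replication members, the 30 other members and 12 T cell markers in each heart (y axes) by strain and diet (x axis), 1 point per mouse and a line at the group median. DBA/2J control 5 and BALB/cJ control 7 stand far above all other mice in the 3 panels (6.93 and 6.18 for the 30 other members).

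When the 7 strains were averaged, 8 of the 30 members outside DNA replication were lower in CR hearts than in control hearts, and none of the 9 replication members passed the test. The cyclins Ccnb2 and Ccna2 and the proliferation antigen Mki67 fell furthest among the members that passed the test, by 0.31, 0.36 and 0.36 on the log2 scale, which is 1.24-, 1.29- and 1.28-fold. With them Kif20a, Prc1, Tpx2, Cdk1 and Anln were lower (limma, adjusted p under 0.05 over all genes), against 4.34% of all genes in this direction. No member passed it in the other direction, against 7.69% of all genes, and 17 members (43.6%) had an unadjusted p under 0.05, against 24.9% of all genes. Outside DNA replication 29 of 30 members had an estimate below 0, with Cenpf above, and in DNA replication 8 of 9 had one above 0, with Rrm2 below. The median difference was -0.15 for the 30 members outside DNA replication, 0.03 for the 9 replication members and -0.0026 for all genes. These counts by sign were the same after another round of quantile normalization and after centering each array on its median. Most members were dim. Ccna2, Kif20a, Prc1, Tpx2 and Anln were among 23 members with a mean signal under the 40th percentile of all genes (5.20).

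When the 2 arrays with high T cell markers were left out, 8 members were lower (background 4.64% of genes) and 3 were higher (background 7.57%). Ccnb2, Ccna2, Mki67, Kif20a, Prc1, Tpx2 and Cdk1 stayed below the threshold, Kif11 joined them, and Anln no longer passed (adjusted p = 0.0661). The replication genes Mcm4, Mcm5 and Tyms were higher under CR. The medians were -0.08 for the 30 members outside DNA replication and 0.10 for the replication members. At the level of group means, the T cell marker mean differed by -0.17 between CR and control averaged over strains, and by -0.04 without these arrays. With the T cell marker mean of each array as a covariate, Ccnb2, Ccna2, Mki67, Kif20a, Prc1 and Tpx2 were lower, and Mcm4, Mcm5 and Tyms were higher.

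**Figure D2:**
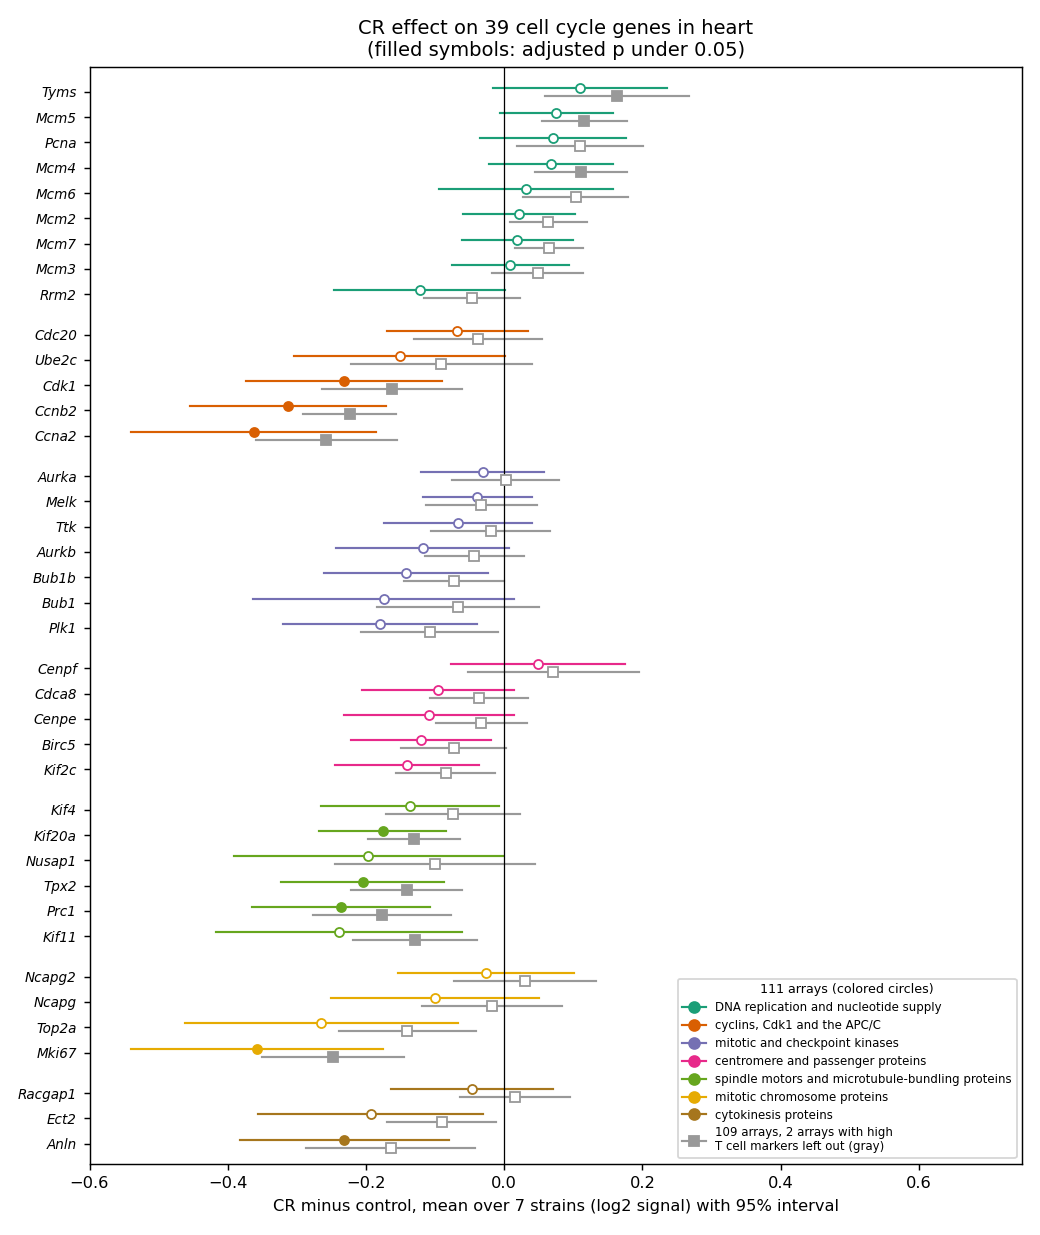
CR minus control averaged over 7 strains (x axis, log2 signal, with 95% intervals from limma) for each of the 39 members (y axis), grouped by role. Colored circles are the 111 arrays, gray squares the 109 arrays without the 2 with high T cell markers, and filled symbols have an adjusted p under 0.05. Mitotic members lie mostly left of 0 (median -0.15) and replication members close to it (median 0.03), with Rrm2 at -0.12.

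Among the cyclins, Cdk1 and the anaphase-promoting complex (APC/C), 3 of 5 members passed the test. Ccnb2, a B-type cyclin that activates Cdk1 at the start of mitosis, ranged from 5.05 to 8.59 with a median of 5.42 in the 56 control hearts, and from 4.76 to 5.55 with a median of 5.22 in the 55 CR hearts. The groups overlapped within every strain, but 51 of 55 CR hearts were below the control mean of their strain and 49 were below its median. The difference was -0.31 ± 0.07 (SE, 95% interval -0.45 to -0.17, adjusted p = 0.000891), it was below 0 in 7 of 7 strains, and it was -0.22 ± 0.03 without the 2 arrays (adjusted p = 2.87e-07). Within strains the mean difference ran from -0.15 in C3H/HeJ to -0.68 in DBA/2J, and the latter was -0.30 without control 5.

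Ccna2, the cyclin of S phase and early mitosis, ranged from 4.56 to 8.96 with a median of 5.24 in control hearts and from 4.43 to 5.63 with a median of 4.99 in CR hearts. The difference was -0.36 ± 0.09 (adjusted p = 0.00234), and -0.26 ± 0.05 without the 2 arrays (adjusted p = 0.000116). In DBA/2J the groups did not overlap: the 8 control hearts were at 5.16 to 8.96 with a median of 5.66, and the 7 CR hearts at 4.70 to 5.11 with a median of 4.98. In the other 6 strains they overlapped, and no other member was without overlap in any strain. The share of all genes without overlap in a strain was not counted.

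Cdk1, the kinase that drives entry into mitosis, had a median of 5.25 in control hearts (4.74 to 8.16) and 5.18 in CR hearts (4.34 to 5.72). Its difference was -0.23 ± 0.07 (adjusted p = 0.0188), below 0 in 6 of 7 strains, and -0.16 ± 0.05 without the 2 arrays (adjusted p = 0.0222). It lost its call with the T cell marker covariate (adjusted p = 0.0573), with the means of atrial cardiomyocyte and white adipocyte markers as covariates (0.120), with all 112 arrays (0.0514), and without C57BL/6J (0.0606) or DBA/2J (0.107). The remaining members of this group act late in mitosis. Cdc20 activates the APC/C and Ube2c is its ubiquitin-conjugating enzyme, and their differences were -0.07 ± 0.05 and -0.15 ± 0.08 (adjusted p = 0.443 and 0.205).

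**Figure D3:**
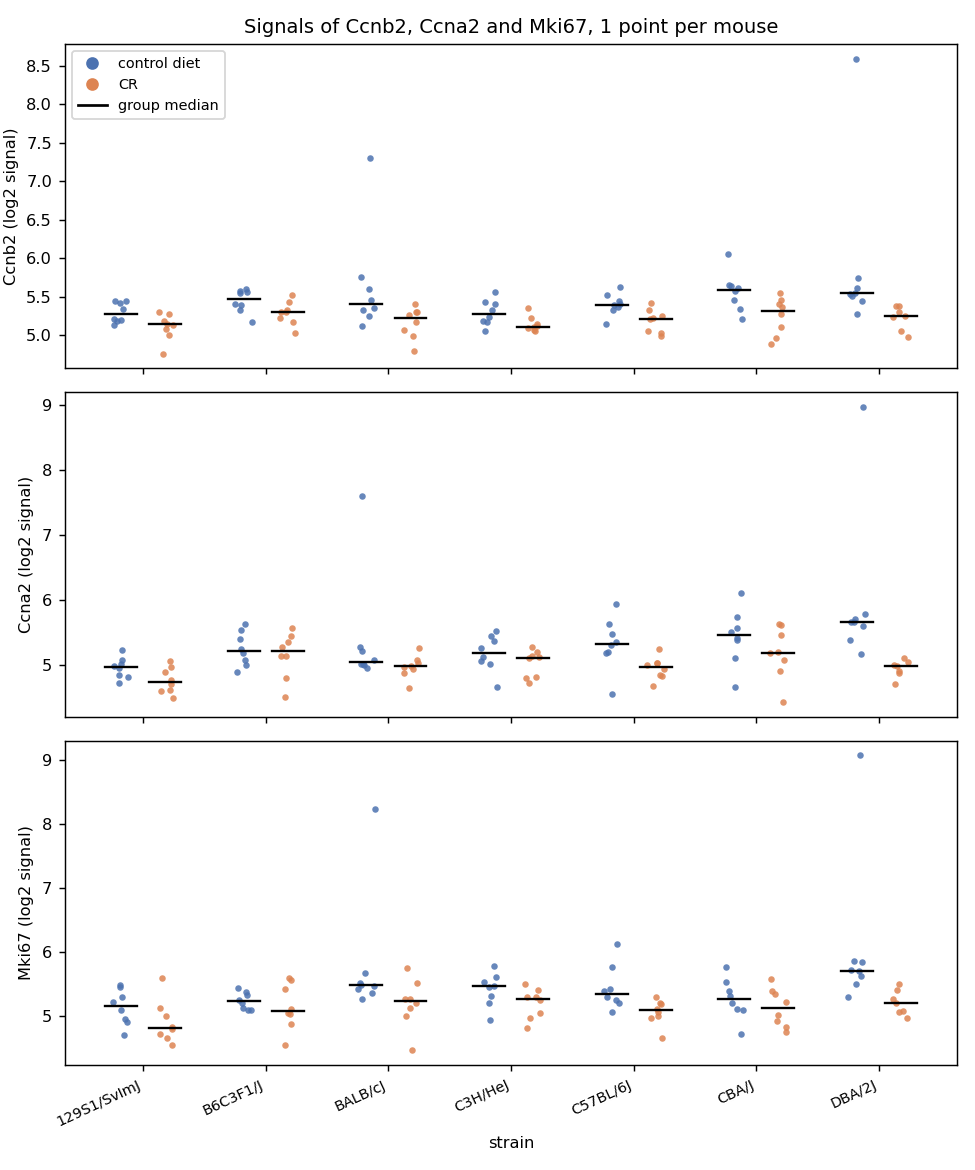
Log2 signals of Ccnb2, Ccna2 and Mki67 (y axes) by strain and diet (x axis), 1 point per mouse and a line at the group median. In each of the 7 strains the CR median lies below the control median for the 3 genes, by very little for Ccna2 in B6C3F1/J, while the points of the groups overlap, apart from Ccna2 in DBA/2J (controls at 5.16 or more, CR at 5.11 or less).

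Of the spindle motors and bundling proteins, 3 of 6 passed, and all 6 had estimates below 0 (-0.24 to -0.14). Kif20a, a kinesin of the central spindle that is needed for cytokinesis, had a median of 4.50 in control hearts (3.98 to 6.20) and 4.40 in CR hearts (4.02 to 4.71). Its difference was -0.18 ± 0.05 (adjusted p = 0.00465), below 0 in 7 of 7 strains, and -0.13 ± 0.03 without the 2 arrays. Without BALB/cJ its adjusted p was 0.0509.

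Prc1, which bundles the microtubules of the central spindle, had a median of 4.03 in control hearts (3.23 to 6.02) and 3.76 in CR hearts (3.20 to 4.34), a difference of -0.24 ± 0.06 (adjusted p = 0.00711). Tpx2, an activator of Aurora A that builds spindle microtubules, had medians of 4.51 (4.07 to 6.66) and 4.40 (3.72 to 4.83), a difference of -0.20 ± 0.06 (adjusted p = 0.0122). Without the 2 arrays these differences were -0.18 ± 0.05 and -0.14 ± 0.04. Without DBA/2J the adjusted p of Tpx2 was 0.0611. Kif11, the motor that pushes spindle poles apart, differed by -0.24 ± 0.09 (adjusted p = 0.0664), and by -0.13 ± 0.05 without the 2 arrays (adjusted p = 0.0467). Nusap1 and Kif4 did not pass with or without them.

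Mki67, the gene of the Ki-67 antigen that coats mitotic chromosomes and marks cycling cells, had a median of 5.39 in control hearts (4.71 to 9.06) and 5.11 in CR hearts (4.47 to 5.75). Its difference was -0.36 ± 0.09 (adjusted p = 0.00381), below 0 in 7 of 7 strains, and -0.25 ± 0.05 without the 2 arrays (adjusted p = 0.000252). The 47 of 55 CR hearts below the control mean of their strain came after Ccnb2 the most of the 8 members called. Top2a differed by -0.26 ± 0.10 (adjusted p = 0.0670), and by -0.14 ± 0.05 without the 2 arrays (adjusted p = 0.0505). The condensin subunits Ncapg and Ncapg2, which compact chromosomes, were at -0.10 and -0.03 and did not pass.

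Anln, an actin-binding scaffold of the cleavage furrow, had a median of 4.49 in control hearts (3.92 to 6.75) and 4.31 in CR hearts (3.65 to 5.50). The difference was -0.23 ± 0.08 (adjusted p = 0.0316), and it was the call most often lost: 8 of 25 alternative settings left it over the threshold. Ect2, which activates RhoA at the furrow, and Racgap1, its partner, had differences of -0.19 and -0.05 (-0.09 and 0.02 without the 2 arrays) and did not pass.

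None of the 7 mitotic and checkpoint kinases passed, although all 7 estimates were below 0. They ranged from -0.18 for Plk1, the Polo kinase, through -0.17 for Bub1 and -0.14 for Bub1b of the spindle checkpoint, to -0.12 for Aurkb, -0.07 for Ttk, -0.04 for Melk and -0.03 for Aurka. The lowest adjusted p was 0.0850, for Plk1. In the 109 arrays the estimates ran from -0.11 for Plk1 to 0.00 for Aurka, with Bub1 at -0.07. Of the 5 centromere and passenger proteins none passed either. Kif2c, a microtubule depolymerase, was at -0.14 (adjusted p = 0.0635), Birc5 (survivin) at -0.12, Cenpe at -0.11, Cdca8 (borealin) at -0.10 and Cenpf at 0.05. In the 109 arrays Aurka, Cenpf, Ncapg2 and Racgap1 had estimates above 0.

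The DNA replication members did not move with the mitotic ones. The 6 Mcm genes encode the helicase that unwinds DNA at the fork, Pcna the sliding clamp of the polymerases, and Rrm2 and Tyms enzymes that supply deoxynucleotides. No replication member passed in the 111 arrays, where estimates ran from -0.12 for Rrm2 to 0.11 for Tyms. Mcm5 had a median of 5.78 in control hearts (5.47 to 7.24) and 5.91 in CR hearts (5.32 to 6.16). Its difference was 0.08 ± 0.04 (adjusted p = 0.248) in all arrays and 0.12 ± 0.03 (1.08-fold, adjusted p = 0.00478) without the 2 arrays.

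Tyms, which makes thymidylate, had medians of 5.34 (4.72 to 7.00) and 5.50 (4.80 to 6.11), with a difference of 0.11 ± 0.06 (adjusted p = 0.282), and of 0.16 ± 0.05 (adjusted p = 0.0251) without the 2 arrays. Mcm4 had medians of 6.00 (5.23 to 7.60) and 6.11 (5.83 to 6.51), with a difference of 0.07 ± 0.05 (adjusted p = 0.371), and of 0.11 ± 0.03 (adjusted p = 0.0172) without the 2 arrays. For these 3 genes the highest control signals lay in DBA/2J control 5 or BALB/cJ control 7. In these 109 arrays, another round of quantile normalization added Mcm6 to the members called higher, and centering added Mcm7. With centering, 7 members were called lower in place of 8. Per strain, in the 109 arrays as deposited, the mean of the 9 replication members was 0.00 to 0.18 higher under CR. The mean of the 30 other members was lower in 6 of 7 strains (-0.19 to 0.05). B6C3F1/J was the exception.

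Other cell markers moved with diet too. Of 8 endothelial markers, 4 were lower under CR (Pecam1 at -0.13, Cdh5 at -0.26, Tie1 at -0.20 and Cldn5 at -0.17), and the list mean was 8.82 in control and 8.71 in CR groups. Of 9 macrophage markers, 4 were higher (Cd68, C1qa, C1qb and C1qc, by 0.18 to 0.28), and the mean was 7.02 and 7.13. Of 7 white adipocyte markers, 3 were lower (Fabp4, Pnpla2 and Lipe), and of 7 fibroblast markers 1 (Col3a1). Of 8 cardiomyocyte markers Actc1 was higher (0.12, adjusted p = 0.0349), and not without the 2 arrays (0.0570). None of the T cell, B cell, neutrophil, erythroid or atrial markers passed. The part of endothelial cells and macrophages in the members' differences was not tested.

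Within single strains few members passed, and few genes did. In 129S1/SvImJ, where 6.83% of genes passed, the 1 member was Mcm3, a subunit of the helicase, at 4.89 to 5.27 in controls (median 5.07) and 5.16 to 5.57 under CR (median 5.30). It was higher by 0.25 ± 0.07 (limma on the arrays of that strain, adjusted p = 0.0438). No member passed in B6C3F1/J (0.908% of genes), BALB/cJ (0%), C3H/HeJ (0.0552%), C57BL/6J (0.251%), CBA/J (0.015%) or DBA/2J (0.01%). The members with an unadjusted p under 0.05 numbered 4 (10.3%, in BALB/cJ, C3H/HeJ and DBA/2J) to 10 (25.6%, in C57BL/6J), against 5.11% of all genes in DBA/2J to 21.5% in B6C3F1/J. In C57BL/6J the share of all genes was 12.6%, and in B6C3F1/J 6 members (15.4%) were under it.

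The strains differed in how many members had estimates below 0. In DBA/2J all 39 did and in BALB/cJ 36, the strains of the 2 arrays with high T cell markers, with medians of -0.36 and -0.23. Without those arrays it was 32 with a median of -0.11 in DBA/2J and 26 with a median of -0.08 in BALB/cJ. In DBA/2J without control 5 Ccna2 fell by 0.62 on the log2 scale (SE 0.09, adjusted p = 0.0142, against 0.0652% of genes). In the other strains 29 members had estimates below 0 in CBA/J, 26 in C57BL/6J, 24 in C3H/HeJ, 18 in 129S1/SvImJ and 14 in B6C3F1/J. Marker means differed between the diets in the same strains. In C57BL/6J the CR group was at -2.43 relative to control for atrial markers, -1.05 for white adipocyte, -0.36 for fibroblast and -0.38 for B cell markers, and in B6C3F1/J at 1.38 for atrial, 0.33 for macrophage and -0.34 for endothelial markers. Their part in the members' differences was not tested. In 129S1/SvImJ all 9 replication members had estimates above 0 and 18 of the 30 others below 0. In B6C3F1/J 7 replication members and 18 of the others were above 0.

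**Figure D4:**
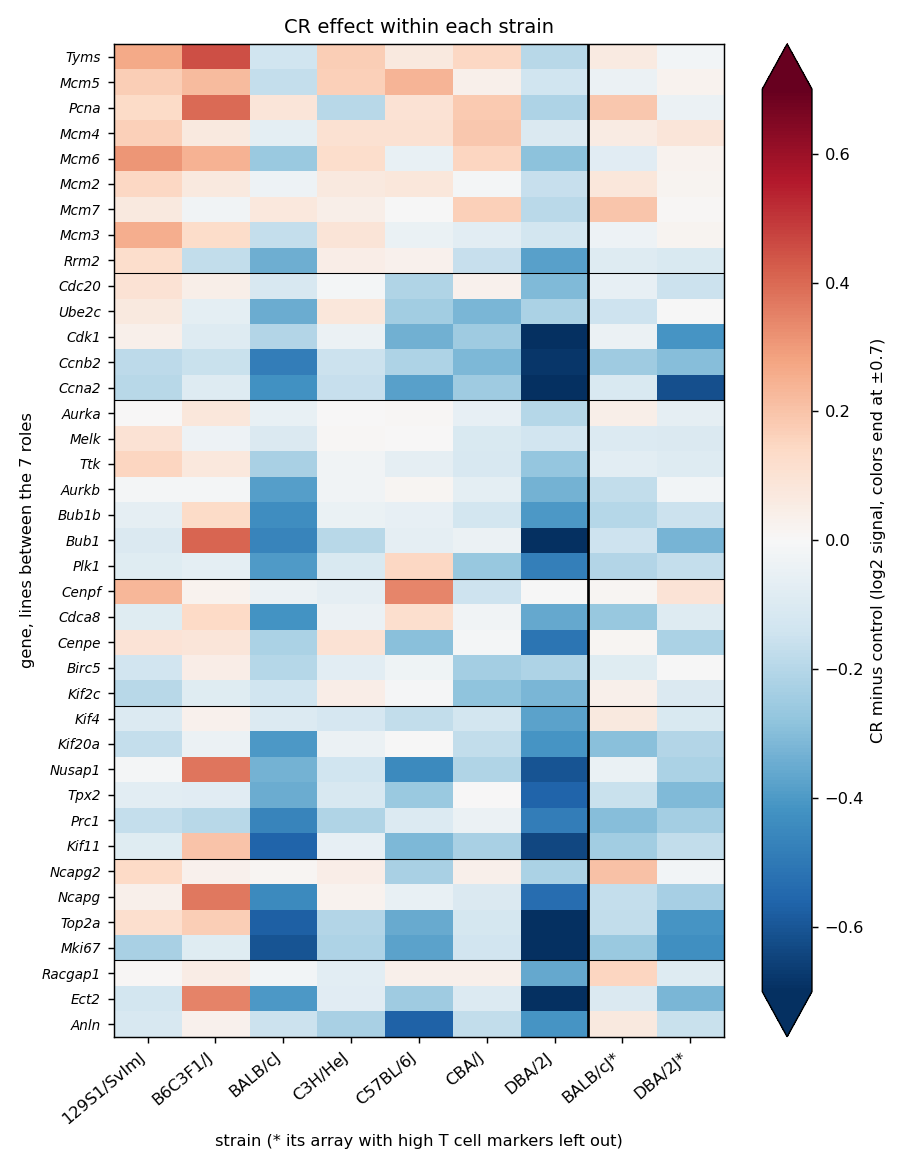
CR minus control (color, log2 signal) for each member (y axis, lines between the 7 roles) in each strain (x axis), with BALB/cJ and DBA/2J repeated at the right without their array with high T cell markers. DBA/2J is below 0 for all 39 members with that array and for 32 without it, and B6C3F1/J is below 0 for 14.

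Whether strains differed in their response was tested by the strain by diet interaction, which 0.712% of genes passed and no member did. The lowest adjusted p of a member was 0.304 for Mcm5, then 0.312 for Pcna, 0.317 for Ect2 and 0.319 for Ncapg, and 4 members (10.3%) had an unadjusted p under 0.05, against 14.7% of all genes. Ect2 was at 4.52 to 4.90 in B6C3F1/J controls and 4.84 to 5.22 under CR, a difference of 0.35 ± 0.08 (adjusted p = 0.0506). In DBA/2J its controls were at 4.53 to 8.17 and its CR hearts at 4.12 to 4.83, a difference of -0.32 ± 0.10 without control 5. Ncapg was at 3.70 to 4.86 in B6C3F1/J controls (median 3.98) and 3.73 to 5.28 under CR (median 4.22), a difference of 0.37 ± 0.21, and at -0.23 ± 0.09 in DBA/2J without control 5. Pcna differed by 0.40 ± 0.15 in B6C3F1/J and by -0.04 ± 0.09 in DBA/2J without control 5. Mcm5 had estimates above 0 in 5 strains, with 0.24 ± 0.08 in C57BL/6J as the highest. Without the 2 arrays the lowest adjusted p of a member was 0.0677, for Ect2.

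Among the control hearts, the strains differed in the kinetochore gene Cenpf and the helicase gene Mcm6 before any other member. The test over the 7 strains was passed by 8 of the 39 members and by 56.5% of all genes. Without the 2 arrays, 18 members passed, against 55.8% of genes. The 8 were Cenpf, Mcm6, Anln, Ube2c, Mcm5, Nusap1, Cdk1 and Pcna, and all of them passed without the 2 arrays as well.

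Cenpf, a large protein of the outer kinetochore, had the widest differences among the strains (adjusted p = 1.62e-15). C3H/HeJ was at 7.22 ± 0.49 (SD, n = 8) and B6C3F1/J at 7.14 ± 0.26, and these neighbors did not differ (adjusted p = 0.897). C57BL/6J followed at 6.13 ± 0.61, lower than B6C3F1/J by 1.01 (adjusted p = 4.52e-05). DBA/2J, CBA/J and 129S1/SvImJ lay at 5.71 ± 0.33, 5.66 ± 0.17 and 5.63 ± 0.29 and BALB/cJ at 5.25 ± 0.24, and no neighbors in this order from C57BL/6J downward passed. The hybrid B6C3F1/J was thus at the level of 1 parent, C3H/HeJ, and above the other, C57BL/6J. Of the 21 pairs of strains 13 passed.

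Mcm6, a helicase subunit, differed among the strains as well (adjusted p = 1.42e-06, and 3.11e-19 without the 2 arrays, where Cenpf was at 5.21e-16). C57BL/6J was at 6.07 ± 0.24, C3H/HeJ at 5.92 ± 0.13, CBA/J at 5.91 ± 0.12 and B6C3F1/J at 5.85 ± 0.18. DBA/2J was at 5.50 ± 0.91 and BALB/cJ at 5.16 ± 0.53, each with its array with high T cell markers at the top (7.71 and 6.44), and medians of 5.11 and 4.99. The lowest level was that of 129S1/SvImJ, at 4.79 ± 0.25. No neighbors in this order passed, and 10 of 21 pairs did. The array probes were not checked for sequence variants between strains, so differences in hybridization and in expression cannot be told apart here.

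**Figure D5:**
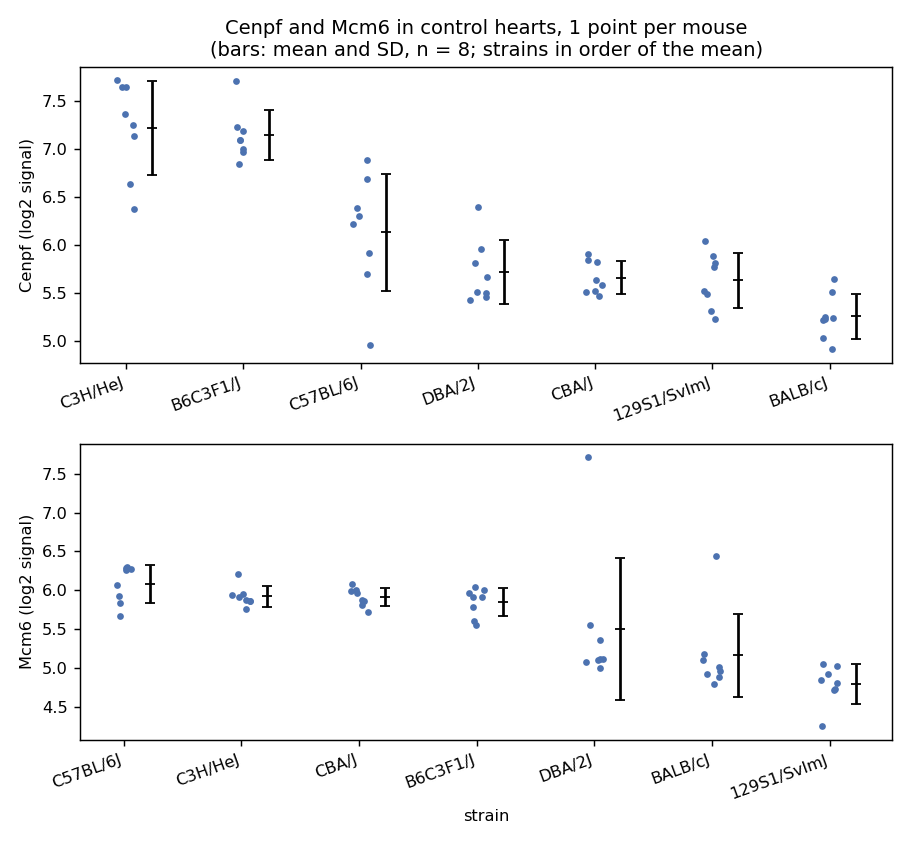
Log2 signals of Cenpf and Mcm6 (y axes) in control hearts by strain (x axis, in order of the mean), 1 point per mouse, with mean and SD of 8 mice. For Cenpf, C3H/HeJ and B6C3F1/J lie above all other strains (7.22 and 7.14), and for Mcm6 a single mouse each lifts DBA/2J and BALB/cJ.

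For the remaining 6 members the highest mean was that of C57BL/6J or DBA/2J. Anln ranged from 4.12 in 129S1/SvImJ to 5.00 in C57BL/6J, Ube2c from 5.25 to 6.21 and Nusap1 from 4.25 to 5.46 in the same strains. Cdk1 ranged from 5.07 in 129S1/SvImJ to 5.92 in DBA/2J, where control 5 was at 8.16. Pcna ranged from 8.43 in BALB/cJ to 9.08 in C57BL/6J. Mcm5 ran the other way, from 5.63 in C57BL/6J to 6.09 in DBA/2J. For Anln, Ube2c, Nusap1, Cdk1 and Mcm6 the lowest control mean was that of 129S1/SvImJ. Marker means differed among the control hearts as well. Atrial markers were highest in C57BL/6J (9.97) and lowest in 129S1/SvImJ (6.29). White adipocyte markers were highest in C57BL/6J too (8.33, with 129S1/SvImJ at 7.09). The part of these markers in the members' strain differences was not tested.

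The spread of the members between mice of a group depended on the 2 arrays. The median within-group SD was 0.339 for the members and 0.223 for all genes, and 35 of 39 members were above the latter. Without the 2 arrays it was 0.212 and 0.219, and 19 of 39 members were above. Deviations from the group means were correlated between members, with a median r of 0.57 over the 741 pairs of members, and of 0.13 without the 2 arrays. These correlations are a description over 111 and 109 arrays that share their normalization. Without the 2 arrays the highest was that of Nusap1 with Ube2c (r = 0.77), then Top2a with Ccna2 (0.65) and Mki67 with Ccna2 (0.57).

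Other cell cycle genes gave the surroundings of the members. Of 77 listed, 75 were measured, 7 were lower and 7 were higher under CR, with a median of -0.03, against 4.34% and 7.69% of all genes. The kinetochore, spindle and chromosome genes held 3 of the lower ones of 20, Kif18b, Hmmr and Cit. Hmmr, a spindle assembly protein, was at -0.24 (SE 0.07, adjusted p = 0.00804), Kif18b at -0.18 (SE 0.05) and Cit, the citron kinase of cytokinesis, at -0.13 (SE 0.03). The others were E2f3 (-0.21 ± 0.04), an activator, and E2f7, a repressor of the E2F family, the phosphatase Cdc25b, which activates Cdk1, and separase (Espl1).

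Some of the higher genes came from the same lists as the lower ones. Wee1, the kinase that keeps Cdk1 inactive until mitosis, was higher by 0.31 ± 0.05 (adjusted p = 3.26e-06), in 7 of 7 strains. It was the 1 gene of the 75 with a strain by diet interaction (adjusted p = 0.00489). In C57BL/6J it was at 6.63 to 7.51 in controls and 7.71 to 8.07 under CR, while in CBA/J the means were 7.83 and 7.86. Ccnd1, the D cyclin of G1, was higher by 0.18 ± 0.05. Lin9 (0.20 ± 0.05), Lin52 (0.09 ± 0.03) and Lin54 (0.08 ± 0.03), the MuvB core proteins of the DREAM complex, passed too, as did Pola1 and Rfc4 of the replication fork (both 0.16). Foxm1 was at -0.11 (adjusted p = 0.118).

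The CDK inhibitors did not pass. Cdkn1b (p27) was at 0.00 ± 0.03, Cdkn1c (p57) at -0.03 ± 0.03, Cdkn2c at 0.04 ± 0.07 and Cdkn2d at 0.00 ± 0.03, with adjusted p-values of 0.581 to 0.988. Cdkn1a shares its probe set with another gene and was not analysed here. With the 2 arrays left out, 7 of the 75 other cell cycle genes were lower and 11 were higher, against 4.64% and 7.57% of all genes.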

How the data were processed

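Total heart RNA was hybridized to Affymetrix Mouse Gene 1.0 ST arrays. The authors computed log2 signals by RMA in Affymetrix Expression Console and deposited 112 arrays, and 111 were used here. Of 35556 probe sets, 21789 carried 1 gene symbol, 1621 several and 12146 none, and only the first were used. Array medians ran from 5.31 to 5.70.

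The 14 strain and diet groups each had a mean in a linear model (limma 3.58.1, R 4.3.3, lmFit and eBayes). This model gave CR minus control averaged over 7 strains and the strain by diet interaction. CR within each strain was fitted on the arrays of that strain, and strain differences on the control hearts alone. Tests were two-sided, with Benjamini-Hochberg adjustment over 19938 genes, at 0.05. The fits were checked on simulated data with independent noise in each gene and no outlying arrays, so the check does not cover arrays that stand apart. Alternatives covered array and strain removal, scaling, filtering, weights, covariates and a replicate block.

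The members, the 77 other cell cycle genes and the 10 marker lists were chosen with earlier results of these data known. Named with values were the members past the threshold, the 4 with the lowest interaction p, up to 3 per strain, the 6 with the lowest p among control hearts, the 8 other cell cycle genes with the lowest p, and the CDK inhibitors. Figures were drawn with matplotlib 3.10.9.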

Additional observations from a re-analysis of the deposited data

Results flagged for a closer look

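In 9 of 42 groups of mice tested, each for the mean of the 9 DNA replication members, of the 30 other members or of the T cell and thymocyte markers, the highest or the lowest mouse lay far from the rest of its group. Chance alone would set apart about 1 in 20 independent groups. The 42 were 14 groups in 3 measures of the same mice, so they were not independent and the 2 numbers cannot be compared. DBA/2J control 5 stood apart in the 3 measures, at 7.60 for the replication members (next mouse 6.09), 6.93 for the other members (next 4.86) and 8.53 for the T cell markers (next 4.63). BALB/cJ control 7 did too, at 7.07 (next 6.00), 6.18 (next 4.66) and 7.45 (next 4.39). For the T cell markers, CBA/J control 1 stood apart at 5.01 (next 4.46), C3H/HeJ CR 5 at 4.50 (next 4.34), and DBA/2J CR 2 as the lowest of its group at 4.07 (next 4.28).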

How the results depend on the processing

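Ccnb2, Ccna2, Mki67 and Prc1 were lower in every alternative that could be run for them, and no member changed direction past the threshold. Anln, Cdk1, Tpx2 and Kif20a lost their calls under 8, 5, 1 and 1 alternatives. With all 112 arrays 1066 genes passed across strains in place of 2399, 5 of the other cell cycle genes in place of 14, and 30 genes in the interaction in place of 142, and the share of calls that were higher was 51.3% in place of 63.9%. Array weights gave 4481 genes and 14 members, 3 of them higher. A filter at the 40th percentile of the gene means (5.20) kept 16 members, of which 3 were called (Ccnb2, Cdk1 and Mki67), all of them lower. It left out Ccna2, Kif20a, Prc1, Tpx2 and Anln. The number of members called higher was 1 without DBA/2J control 5, 3 without both arrays with high T cell markers, 3 with the T cell marker covariate and 1 without DBA/2J, where 5 were lower. Another alternative left out 6 arrays that stood apart (these 2, CBA/J control 1, C57BL/6J CR 4, B6C3F1/J CR 2 and C3H/HeJ control 6). It gave 15 members across strains, 5 of them higher, and 19 members among control strains. In the interaction it gave 1830 genes in place of 142, and 2 members (Cenpe and Ect2). The genes passing across and among control strains in this setting are not given here, so these counts cannot be read as particular to the members. Over all alternatives, 1066 to 4481 genes passed across strains and 8951 to 11976 among control strains. Without 129S1/SvImJ 1239 genes passed across strains. The interaction held 271 genes without CBA/J control 1 and 653 without C57BL/6J CR 4. Leaving out 1 array at a time gave 2337 to 3030 genes and 8 to 9 members across strains, 0 to 1 of them higher, 101 to 653 genes in the interaction and 8 to 14 members among control strains, with 14 without BALB/cJ control 7. Without both arrays it was 18, and the spread between mice was 0.212. Within strains, the fit of all 14 groups and the methods' t-test after Benjamini-Hochberg adjustment called 0 members in 129S1/SvImJ and 1 each in B6C3F1/J (Pcna and Ect2). At the unadjusted threshold of 0.01 that the methods used, the t-test called Mcm3 in 129S1/SvImJ (10.5% of all genes) and Ect2 and Tyms in B6C3F1/J (6.58%). It also called Mcm5 in C57BL/6J (4.13%) and Kif20a in CBA/J (1.9%). No member was called in BALB/cJ (1.72%), C3H/HeJ (2.16%) or DBA/2J (1.4%). With limma on the arrays of the strain, leaving out C57BL/6J CR 4 gave 2 of 39 members in C57BL/6J (Anln and Mcm5). There 913 of 19938 genes passed in place of 50, so calls rose among all genes as well. Without DBA/2J control 5 there was 1 member in DBA/2J (Ccna2), among 13 genes in place of 2. The cause of these changes was not tested.

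With the replicate block of strain and number, 2532 genes, 8 members lower and 0 higher passed across strains. The numbers were not taken to pair the mice, since the correlation of same-numbered mice was above 0.1 in 28 of 55 pairs and below -0.1 in 12 (median 0.109). The number of arrays limits the precision, and differences of dim probe sets are compressed.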
